A study of Mus musculus with 4 samples.

Results

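The immunoglobulin heavy chain V genes (Ighv genes) are the upstream segments of the mouse heavy chain locus on chromosome 12. They were taken from the deposited count table as the rows inside the locus whose gene type marks an immunoglobulin V gene. Of the 38087 genes in the table, 113 are such rows. Only 3 of them (Ighv14-3, Ighv13-1 and Ighv13-2) carry the type IG_V_gene, and the other 110 carry the type IG_LV_gene, an older name for a leader plus V segment. All 113 are described here, and the 3 rows are also given on their own. RNA came from 4 C57BL/6 samples at postnatal week 20. The 2 Becn1-M-KO samples (KO below) came from mice whose Becn1 gene, which encodes the autophagy protein Beclin-1, was deleted in myeloid cells, and the series calls them B cell lymphomas. The 2 WT samples are labelled wild-type cervical lymph nodes. Genotype and tumour therefore cannot be told apart, and neither the driver of the deletion nor the number of animals is given in the sources used here.

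A heavy chain variable region is assembled in developing B cells by joining 1 V, 1 D and 1 J segment, so that each B cell transcribes 1 productively rearranged V gene from its promoter. The set of V genes in use across many B cells is called the V repertoire, and descendants of 1 B cell share the same rearrangement. The V genes form sequence families, numbered in the gene names. Families Ighv2 and Ighv5 lie nearest the D segments (proximal). The large Ighv1 family, also called J558, and Ighv8 lie farthest from them (distal), and the remaining families (middle) lie mostly between. Below, proximal, middle and distal name these family groups and not the measured position of a gene. Plasma cells, the antibody-secreting end stage of the B lineage, carry far more immunoglobulin RNA per cell than other B cells.

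The 113 rows span 2426.2 kb, chr12:113574242-116000461 in mm10, and 111 of them lie on the minus strand. The file names 78 of them only by the sequenced clone, such as AC073565.5, so the names used here are those that GENCODE M21 gives the gene at the same position and strand. All 113 were matched in this way. GENCODE M21 annotates 105 of them as functional V genes, 6 as pseudogenes (Ighv2-1, Ighv13-1, Ighv1-2, Ighv1-14, Ighv1-30 and Ighv8-14) and 2 plus-strand rows (Ighv5-8 and Ighv1-13) as IG_LV_gene. The symbols Ighv7-1 and Ighv7-3 stand at each other's position in the deposited table, and the position was followed here. No 2 of the 113 rows overlap.

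The reference ends of the V genes that the results turn on are printed so that their close likeness can be seen. Each line gives the last 90 bases of the GENCODE M21 transcript, 5′ to 3′ on the coding strand, and capitals mark the 9 letters TGTGCNAGA, which begin with the codon of the conserved cysteine before the junction with the D segment. The first 6 genes had some of the largest shares of reads, or the largest difference between the KO libraries, and the last 3 are the rows typed IG_V_gene.
Ighv1-26: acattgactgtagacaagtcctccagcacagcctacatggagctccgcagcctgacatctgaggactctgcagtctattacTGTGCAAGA
Ighv1-80: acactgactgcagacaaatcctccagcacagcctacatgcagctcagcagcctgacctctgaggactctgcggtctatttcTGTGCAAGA
Ighv1-64: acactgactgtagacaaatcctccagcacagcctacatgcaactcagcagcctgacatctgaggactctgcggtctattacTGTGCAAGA
Ighv3-6: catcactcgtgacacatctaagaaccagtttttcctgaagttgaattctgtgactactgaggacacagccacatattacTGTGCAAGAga
Ighv9-3: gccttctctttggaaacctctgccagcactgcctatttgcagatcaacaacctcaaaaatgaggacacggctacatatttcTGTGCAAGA
Ighv5-9-1: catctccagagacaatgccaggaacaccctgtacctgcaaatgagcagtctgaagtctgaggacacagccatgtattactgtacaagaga
Ighv14-3: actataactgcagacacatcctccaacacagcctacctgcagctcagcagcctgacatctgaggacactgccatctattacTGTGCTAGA
Ighv13-1: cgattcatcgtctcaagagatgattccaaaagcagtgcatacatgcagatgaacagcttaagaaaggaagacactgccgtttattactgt
Ighv13-2: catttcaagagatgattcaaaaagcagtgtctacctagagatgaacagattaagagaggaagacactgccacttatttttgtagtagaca

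The 9 letters stood in the last 30 bases of 71 of the 113 transcripts (62.8%) and of 69 of the 105 functional ones, and in 0 on the other strand. Among all 113 functional heavy chain V genes that GENCODE M21 places in the locus, 72 (63.7%) hold them, and none of 100 functional kappa V genes does. Ighv5-9-1, Ighv13-1 and Ighv13-2 are among those without them. Within family Ighv1 the median identity between transcripts was 84.3%, against 61.9% between families. Of the 113 transcripts, 54 had a relative at 95% identity or more and 14 had one at 98% or more. Reads of such genes could be split or shared by the counting, so values of single genes are uncertain where a near copy exists. The closest pair was Ighv1-62-2 and Ighv1-71 at 99.7%.

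Library totals ranged from 15604247 to 20067004 reads. Becn1 itself had 49.5 and 53.3 TMM CPM in KO, against 54.8 and 63.4 in WT, where CPM are reads scaled to library size and TMM scaling corrects them for differences in composition between libraries (log2 fold change -0.20, SE 0.21, adjusted p = 0.557 by edgeR). A deletion in myeloid cells leaves the gene in all other cells of the tissue, so this level is a weak check of the labels. Markers of the labelled tissue were uneven. The 8 pan-B markers together had 2971 and 2876 CPM of the library total in KO, against 19.1 and 1811 in WT, and the 8 T cell markers had 583 and 572 CPM in KO, against 5.20 and 711 in WT. The 10 markers of salivary and other gland epithelium had 24.7 and 112 CPM in KO, against 11470 and 39000 in WT. The first WT library thus held almost no lymphocyte reads, and both WT libraries held many gland reads. The pan-B sums ranked the 4 libraries in the same order as the V sums below, while the T cell and gland sums did not. The part of any of these values in the V gene levels was not tested. The main sums and calls, and the fold changes of the leading genes, are therefore also given without WT replicate 1. Leaving it out leaves 1 WT library, so p-values from that fit say nothing of the spread within WT.

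Heavy chain V reads were far more abundant in the KO samples than in WT. The 113 rows summed to 103488 and 119585 reads in KO, against 247 and 4926 reads in WT. Scaled to the library total, this was 6632 and 5959 CPM in KO, against 15.3 and 276 CPM in WT. With TMM scaling the sums were 5205 and 4608 CPM in KO, against 29.8 and 235 CPM in WT. Both KO libraries stood above both WT libraries, and as a ratio the 2 WT libraries differed from each other more than the 2 KO libraries did. The log2 ratio of the group means was 5.21, and 4.38 against WT replicate 2 alone. An exact two-sided permutation test of 2 against 2 gave p = 0.333, the smallest p that this design allows. In bulk tissue, fewer cells that transcribe a V gene and less V gene RNA per cell cannot be told apart.

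The V genes stood higher in KO than the pan-B markers did. For each read of the pan-B list there were 2.23 and 2.07 heavy chain V reads in KO, against 0.799 and 0.152 in WT. Relative to the other parts of the antibody genes the V reads varied less. Per read of the 7 heavy chain constant region rows there were 0.214 and 0.203 V reads in KO, against 0.199 and 0.124 in WT. Of the 1241 constant region reads of WT replicate 1, 679 fell on the row at the Igha gene ID. For each read of the 4 J segments there were 7.34 and 7.61 V reads in KO, against 6.68 and 5.51 in WT. Each kappa light chain V read was matched by 0.692 and 0.703 heavy chain V reads in KO, against 0.659 and 0.428 in WT. In all 4 ratios, counted in this way, both KO libraries lay above both WT libraries, and WT replicate 2 was the lowest. For the constant regions this order rests on the row at the Igha gene ID. Without that row the constant region reads were 477952 and 578155 in KO, against 562 and 35797 in WT. WT replicate 1, with 247 V reads, then had the most V reads per constant region read. Its J ratio rests on 37 J reads, and its differences from KO in these ratios were not tested.

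**Figure D1:**
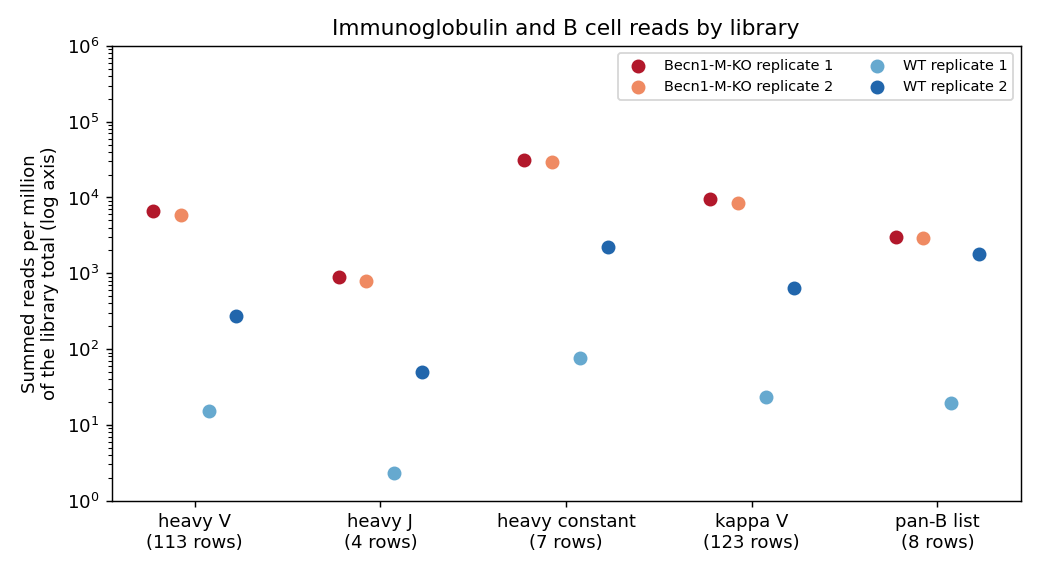
Summed reads scaled to the library total, in CPM (vertical log axis) for 5 sets of rows (horizontal axis), with 1 point per library and no error bars. The KO libraries sit at 6632 and 5959 for the heavy chain V rows, against 15.3 and 276 in WT, while for the 8 pan-B markers they sit at 2971 and 2876, against 19.1 and 1811 in WT.

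Single V genes followed the sum. edgeR's quasi-likelihood test with Benjamini-Hochberg adjustment over all 20695 genes tested called 27 of the 113 V genes higher in KO and 0 lower. Over all genes tested, 1.04% were called higher and 2.18% lower. At an unadjusted p under 0.05 the same test had 102 V genes higher and 0 lower, where 10.5% of all genes tested were higher. DESeq2 called 102 higher and 0 lower, where it called 4.13% of all genes in its fit higher. Of the 113 rows, 104 passed the count filter. The filter asks for about 10 reads in as many libraries as a group holds, so WT reads alone suffice only with both WT libraries. Only 6 of the 113 rows had 10 or more reads in WT replicate 1, so all other V genes tested passed through their KO reads. Under 10 reads in both WT libraries were found for 20 of the 104, and for 9 of the 27 called genes. The number that passed, the median over them and their calls are therefore given as a description only. The 9 that did not pass had at most 17 reads in a KO library and 2 in a WT library. In 111 of the 113 rows both KO libraries lay above both WT libraries in TMM CPM, which held for 34.3% of all genes tested. The exceptions were Ighv16-1, with 0 reads in all 4 libraries, and Ighv5-8.

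The calls were spread over the locus, with 4 of 20 proximal, 7 of 29 middle and 16 of 64 distal genes. Their log2 fold changes ran between 3.60 and 7.47 and their adjusted p-values between 0.037 and 0.0492, close to the threshold of 0.05. The median log2 fold change was 5.25 over the 104 V genes tested and 0.01 over all genes tested. It was 5.19 with the 3 tested V genes that had 0 reads in both WT libraries set to their bound against 3 reads per WT library. Against WT replicate 2 alone, 106 of the 113 were called higher and 0 lower, where 20.9% of all genes tested were called higher and 22.8% lower. All 27 genes of the fit with 4 libraries were among these 106. Without either KO library 0 genes of the whole table were called. Without WT replicate 2 the count was 105 of the 113, where 32.3% of all genes tested were called higher.

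The smallest p-values belonged to 2 genes of the middle families. Ighv6-3 (chr12:114391712-114392169) had 2062 and 2091 reads in KO, against 17 and 55 reads in WT, a log2 fold change of 5.28 (SE 0.31, adjusted p = 0.037 by edgeR). Ighv9-1 (chr12:114093928-114094221) had 783 and 978 reads in KO, against 7 and 23 reads in WT, a log2 fold change of 5.27 (SE 0.27, adjusted p = 0.037 by edgeR). In both genes the 2 WT libraries were close to each other once scaled, at 2.05 and 2.62 TMM CPM for Ighv6-3 and at 0.845 and 1.10 TMM CPM for Ighv9-1. The log2 fold change was 5.13 for both against WT replicate 2 alone. The KO levels were 104 and 80.6 TMM CPM for Ighv6-3 and 39.4 and 37.7 TMM CPM for Ighv9-1. With 7 reads in WT replicate 1, Ighv9-1 passed the count filter through its KO reads.

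The other 8 of the 10 smallest p-values also belonged to genes with few WT reads. Ighv2-9-1 rose to 855 and 864 reads in KO, against 2 and 14 in WT (log2 fold change 6.22, adjusted p = 0.0435 by edgeR). Ighv5-15 had 318 and 289 reads in KO, against 2 and 5 in WT (5.78). Ighv1-37 had 189 and 253 reads in KO, against 2 and 3 in WT (5.72), and Ighv1-23 had 432 and 496 in KO, against 3 and 15 in WT (5.13). These 8 genes, among them also Ighv13-2, Ighv8-11, Ighv1-14 and Ighv1-12, came from proximal, middle and distal families. All 8 passed the count filter through their KO reads, since none had 10 reads in WT replicate 1. Among them, Ighv5-15, Ighv1-37, Ighv13-2, Ighv8-11 and Ighv1-14 had under 10 reads in both WT libraries. The called gene with the largest fold change, Ighv7-1, had 568 and 1069 reads in KO, against 0 and 6 reads in WT (log2 fold change 7.47, SE 0.82, adjusted p = 0.0459 by edgeR, and 6.91 against WT replicate 2 alone). The called gene with the smallest, Ighv7-4, had 42 and 54 reads in KO, against 1 and 4 in WT (3.60). Both Ighv7 genes passed the filter through their KO reads, and both were picked after their values were seen.

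The V gene with the largest share of V reads in KO was the distal Ighv1-26. Usage here is the share of a library's heavy chain V reads that fall on 1 gene, with Wilson 95% intervals that cover counting error only. It (chr12:114788372-114788805) led both KO libraries, with 4.56% (4.43 to 4.69) and 4.84% (4.72 to 4.96), against 11.3% (7.96 to 15.9, 28 of 247 reads) and 3.39% (2.92 to 3.93) in WT. Its reads were 4719 and 5785 in KO, against 28 and 167 in WT (log2 fold change 5.32, SE 0.57, adjusted p = 0.0456 by edgeR), and the log2 fold change was 4.86 against WT replicate 2 alone. It also led both KO libraries per kb of listed length, at 4.33% and 4.62%. The next genes by share in KO were Ighv3-6, with 3.84% and 4.13% in KO, against 3.64% and 4.89% in WT, and Ighv1-64, with 4.15% and 3.24% in KO, against 6.48% and 5.05% in WT.

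Of the 10 V genes with the highest mean share in KO, 7 belong to the Ighv1 family (Ighv1-26, Ighv1-64, Ighv1-18, Ighv1-9, Ighv1-55, Ighv1-82 and Ighv1-53) and so are distal, as are 56.6% of the 113. The other 3 were Ighv3-6, Ighv9-3 and the proximal Ighv5-17. The same 10 genes led per kb of listed length. Ighv1-18 had 3764 and 4198 reads in KO, against 1 and 128 in WT. Ighv9-3 had 2530 and 4032 in KO, against 1 and 132 in WT, and Ighv1-9 had 3075 and 3639 in KO, against 2 and 105 in WT. Ighv1-55 had 2974 and 4188 in KO, against 5 and 101 in WT. Ighv1-18, at 189 and 162 TMM CPM in KO, against 0.121 and 6.11 in WT, had a log2 fold change of 5.74 with an SE of 1.59 (adjusted p = 0.128 by edgeR) and was not called. Against WT replicate 2 alone its log2 fold change was 4.85, and it was called there.

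Reads in KO were spread over many V genes and no single one held a large part. The leading gene held 4.56% and 4.84% in KO, against 11.3% and 7.37% in WT. The 10 leading genes of each library together held 31.5% and 31.9% in KO, against 52.2% and 38.4% in WT. It took 21 genes in each KO library, against 10 and 16 in WT, to reach 50% of the V reads. The effective number of V genes, the exponential of the Shannon entropy of the shares, was 69.9 and 69.3 in KO, against 40.0 and 60.9 in WT. The group means were 69.6 ± 0.416 in KO and 50.5 ± 14.8 in WT (SD, n = 2 each), and the exact permutation test gave p = 0.333.

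Depth bears on these numbers, since WT replicate 1 had 247 V reads in all. At least 1 read was found for 112 and 111 V genes in KO, against 67 and 103 in WT. Thinned by calculation to 247 reads, the expected number of V genes seen was 74.2 and 73.9 in KO, against 67 and 71.1 in WT. At 4926 reads it was 104.7 and 104.3 in KO, against 103 in WT replicate 2. At equal depth the libraries thus differed by few genes. A V gene with 0 reads in WT replicate 1 could still hold up to 1.21% of its V reads, since a count of 0 allows 3 reads.

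**Figure D2:**
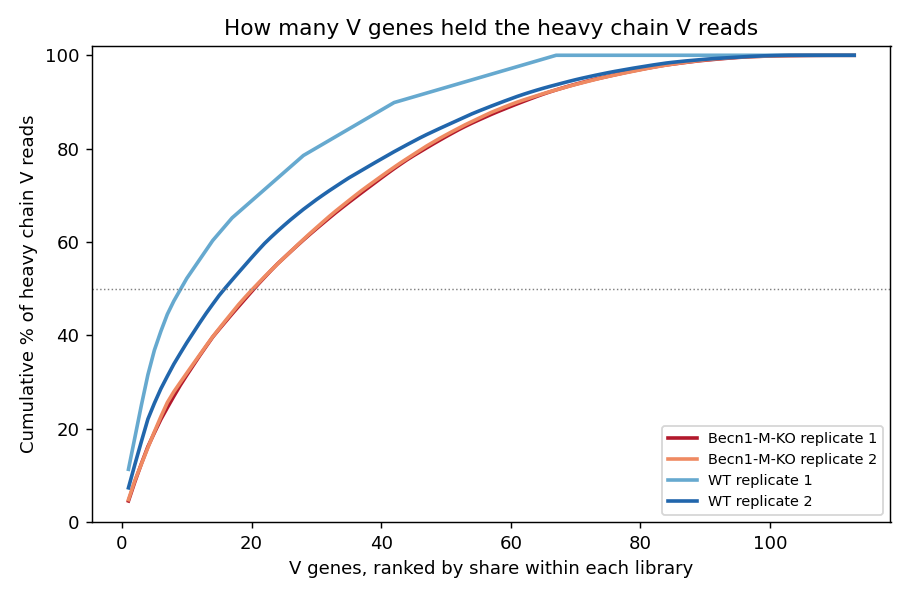
Cumulative percent of heavy chain V reads (vertical axis) against the number of V genes ranked by share within each library (horizontal axis), 1 line per library, with a dotted line at 50%. The 2 KO lines lie on each other and reach the dotted line at 21 genes, while WT replicate 1 reaches it at 10 and WT replicate 2 at 16.

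Along the locus, V genes were used from end to end in KO. The proximal families held 16.8% and 14.5% of V reads in KO, against 8.50% and 10.8% in WT. The distal families held 60.8% and 60.0% in KO, against 64.0% and 66.2% in WT, and the families between held 22.4% and 25.5% in KO, against 27.5% and 23.0% in WT. By number of genes, the proximal families make up 17.7% of the 113, the middle ones 25.7% and the distal ones 56.6%. Both KO libraries lay above both WT libraries for the proximal share and below both for the distal share, while the middle shares overlapped. The distal share differed by -4.70 percentage points (60.4 ± 0.578 in KO and 65.1 ± 1.59 in WT, SD, n = 2 each), with p = 0.333 in the exact permutation test. For the proximal share the difference was 5.98 points (15.6 ± 1.61 in KO and 9.65 ± 1.62 in WT, SD, n = 2 each), also with an exact p = 0.333. The middle share differed by -1.27 points (exact p = 0.667). Over the 7 comparisons of this kind the adjusted p was 0.389 for those at 0.333, so none passed.

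**Figure D3:**
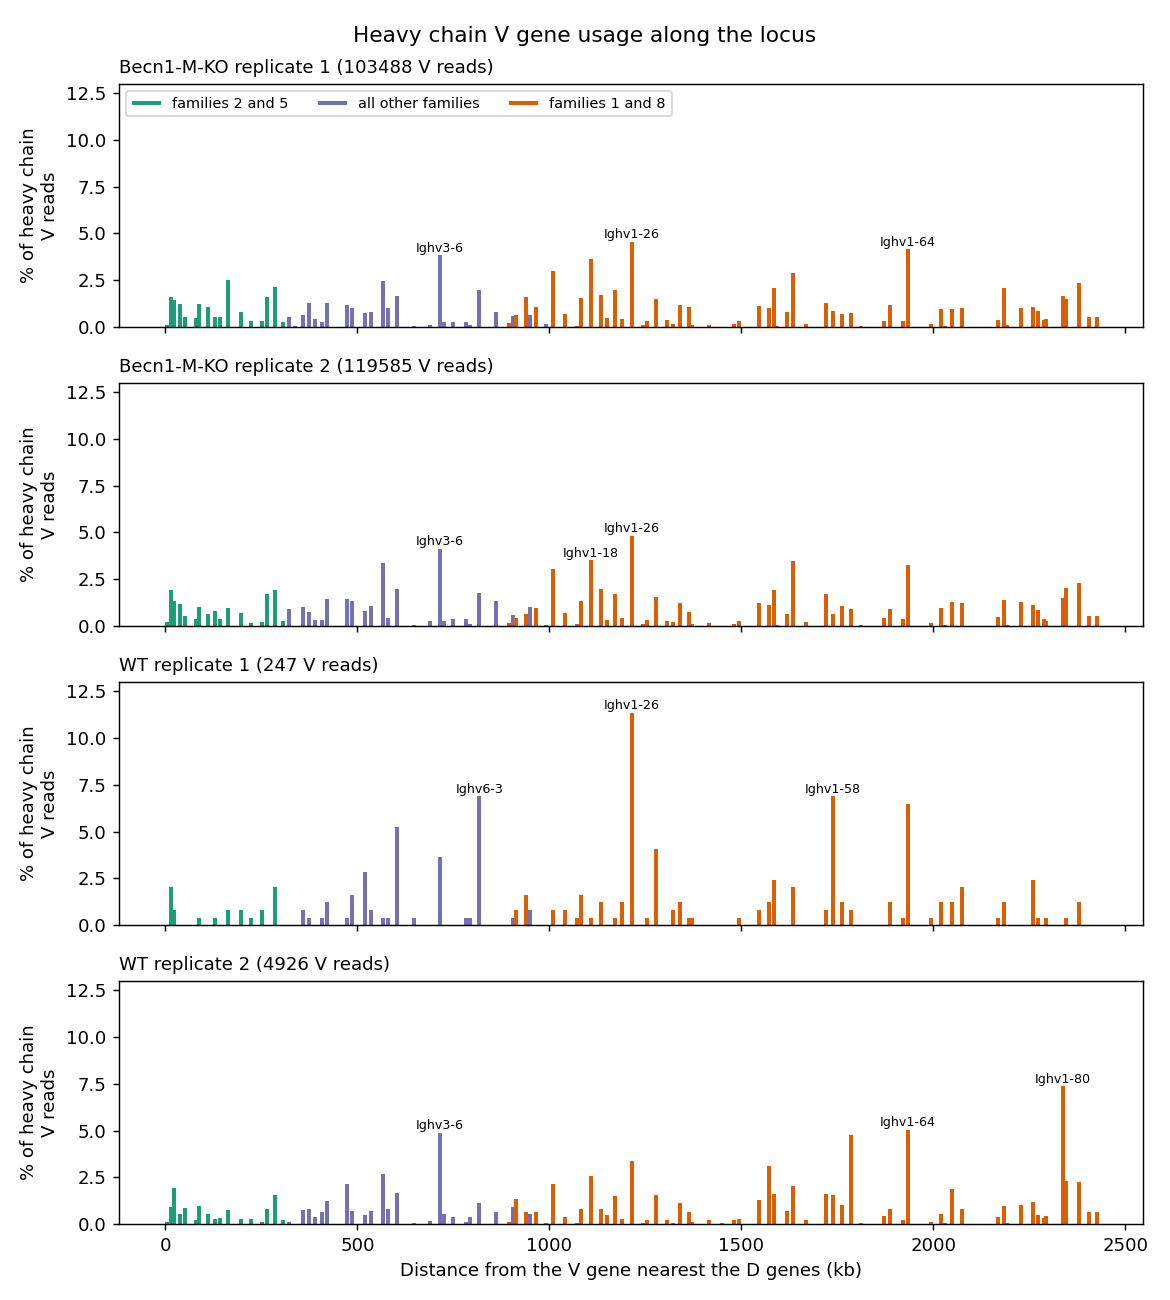
Percent of a library's heavy chain V reads (vertical axes) for each V gene by its distance in kb from the V gene nearest the D segments (horizontal axis), 1 panel per library, with bars coloured by family group. The KO panels show similar profiles with no bar above 4.84%, whereas Ighv1-26 reaches 11.3% of 247 reads in WT replicate 1 and Ighv1-80 reaches 7.37% in WT replicate 2.

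In windows of 250 kb counted from the V gene nearest the D segments, both KO libraries used the fifth window most, with 18.2% in each, against 18.2% and 12.6% in WT. That window holds Ighv1-26 and Ighv1-18. The first window held 12.4% and 10.3% in KO, against 5.67% and 8.06% in WT. The last window held 9.26% and 9.56% in KO, against 4.86% and 15.7% in WT, so there the 2 WT libraries lay on both sides of KO. Of the functional genes among the 113, Ighv5-2, the one nearest the D segments, had 139 and 288 reads in KO, against 0 and 7 in WT. Ighv1-85, the farthest, had 544 and 676 reads in KO, against 0 and 32 in WT. Neither passed the test with 4 libraries (adjusted p = 0.0666 for Ighv5-2 and 0.103 for Ighv1-85 by edgeR).

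By family, Ighv1 held the most reads in every library, 57.8% and 56.5% in KO, against 60.3% and 63.3% in WT. Ighv5 followed in KO with 10.5% and 8.75%, against 5.26% and 7.45% in WT. Ighv2 held 6.31% and 5.73% in KO, against 3.24% and 3.35% in WT. Ighv14 held 4.57% and 5.74% in KO, against 8.91% and 4.36% in WT. Ighv11, which in mice is known for its use by B-1 cells, held 1.43% and 1.79% in KO, against 0.810% (0.222 to 2.90) and 2.76% (2.34 to 3.26) in WT. Ighv12, likewise known from B-1 cells, held 0.129% and 0.108% in KO, against 0.405% (0.0715 to 2.26) and 0.406% (0.263 to 0.626) in WT. The Wilson intervals of WT replicate 1 covered a KO value in each family with reads in it other than Ighv6 and Ighv14. Those of WT replicate 2 lay above both KO values for Ighv11 and Ighv12, and likewise for Ighv1 and Ighv3. They lay below both for Ighv2, Ighv5, Ighv6, Ighv7 and Ighv13, so such a difference was not particular to Ighv11 and Ighv12. Ighv12 is 1 gene, with 20 reads in WT replicate 2.

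**Figure D4:**
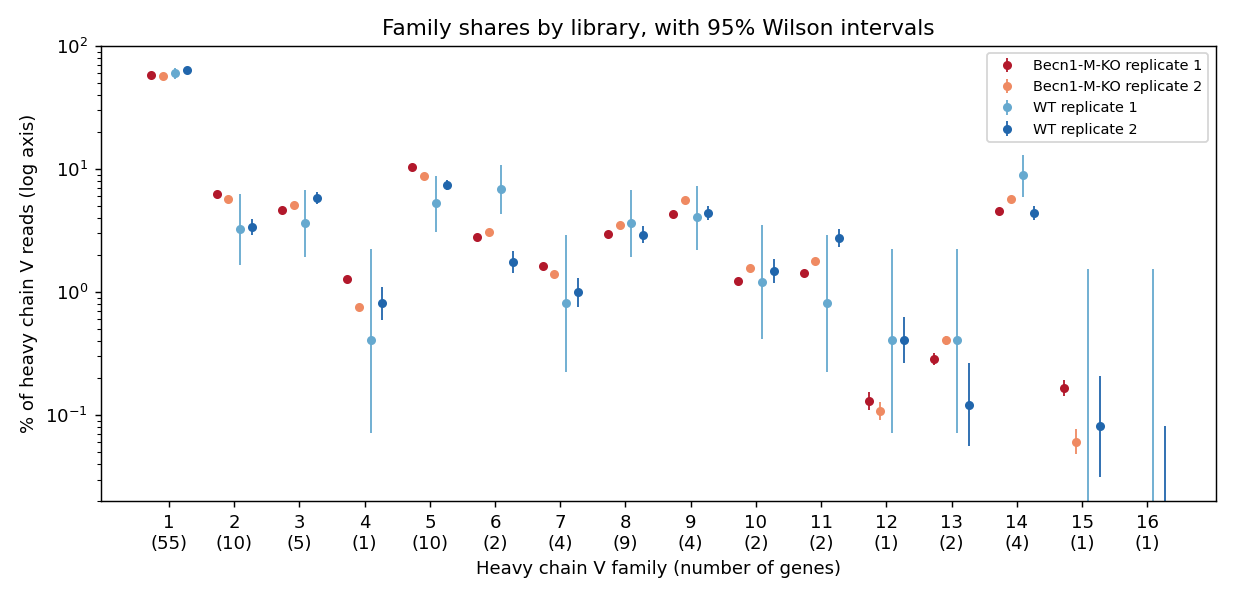
Percent of heavy chain V reads (vertical log axis) for the 16 V families (horizontal axis, number of genes in brackets), 1 point per library with its Wilson 95% interval. Ighv1 holds 57.8% and 56.5% in KO, against 60.3% and 63.3% in WT, and the wide intervals of WT replicate 1 reflect its 247 V reads.

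The 2 KO libraries used the V genes in nearly the same proportions. Across the 113 genes their shares had a Pearson correlation of 0.9496 and a Spearman correlation of 0.960, given as a description since genes of 1 library share its depth and are not replicates. Summed over genes, 10.03% of the V reads would have to move to another gene to make the 2 libraries equal. The differences were nevertheless larger than counting error in 63 of the 113 genes, whose Wilson intervals did not overlap. More than a 2-fold difference in share was found in 5 of the 104 genes with at least 10 reads in both KO libraries.

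In percentage points, the largest difference between the KO libraries lay in the proximal Ighv5-9-1 (chr12:113736111-113736570). It held 2.50% (2.41 to 2.60) in KO replicate 1 and 0.953% (0.900 to 1.01) in KO replicate 2, from 2592 and 1140 reads, against 2 and 37 reads in WT. Ighv1-5 had 1633 and 794 reads in KO, against 4 and 31 in WT. In the other direction, Ighv9-3 held 2.44% in KO replicate 1 and 3.37% in KO replicate 2. Ighv1-64 held 4.15% in KO replicate 1 and 3.24% in KO replicate 2, and Ighv1-72 held 2.09% in KO replicate 1 and 1.38% in KO replicate 2. Ighv1-72 is 99.2% identical to Ighv1-62-3, so its reads could be shared with that gene.

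WT replicate 2 ranked the V genes much as KO did. Of its 5 leading genes, Ighv1-64, Ighv3-6 and Ighv1-26 were also the 3 leading genes by mean share in KO, while Ighv1-80 and Ighv1-61 were not among the 10 leading ones there. Its shares had a Spearman correlation of 0.904 and 0.912 with the KO libraries, and a Pearson correlation of 0.712 and 0.714. The share of V reads that would have to move was 22.3% and 21.5%. More than a 2-fold difference in share was found in 14 and 13 of the 84 genes with at least 10 reads in both libraries. WT replicate 1, with its 247 reads, had a Pearson correlation of 0.627 and 0.606 with the KO libraries and of 0.440 with WT replicate 2.

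The gene that differed most from WT replicate 2 in percentage points was Ighv1-80 (chr12:115912344-115912776), which held 1.64% (1.57 to 1.72) and 1.51% (1.45 to 1.58) in KO, against 0% (up to 1.21, the floor of 3 reads) and 7.37% (6.67 to 8.13) in WT. Its reads were 1700 and 1811 in KO, against 0 and 363 in WT. Ighv1-61 held 0.765% and 0.897% in KO, against 0.810% (2 reads) and 4.77% (4.21 to 5.40) in WT. Ighv1-52, chosen after its values were seen, held 1.04% and 1.10% in KO, against 1.21% (3 reads) and 3.11% (2.66 to 3.63) in WT. In these 3 genes WT replicate 2 stood above both KO libraries in share, while its level stayed below them. Ighv1-80 reached 85.5 and 69.8 TMM CPM in KO, against 0 and 17.3 TMM CPM in WT, a log2 fold change of 3.13 (SE 1.84, adjusted p = 0.342 by edgeR). Against WT replicate 2 alone it was 2.17. Ighv1-61 reached 39.8 and 41.3 TMM CPM in KO, against 0.242 and 11.2 in WT (2.77, SE 1.42, adjusted p = 0.293 by edgeR), and 1.86 against WT replicate 2 alone. These 2 had the smallest fold changes among the 10 KO leaders and the leaders of WT replicate 2.

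**Figure D5:**
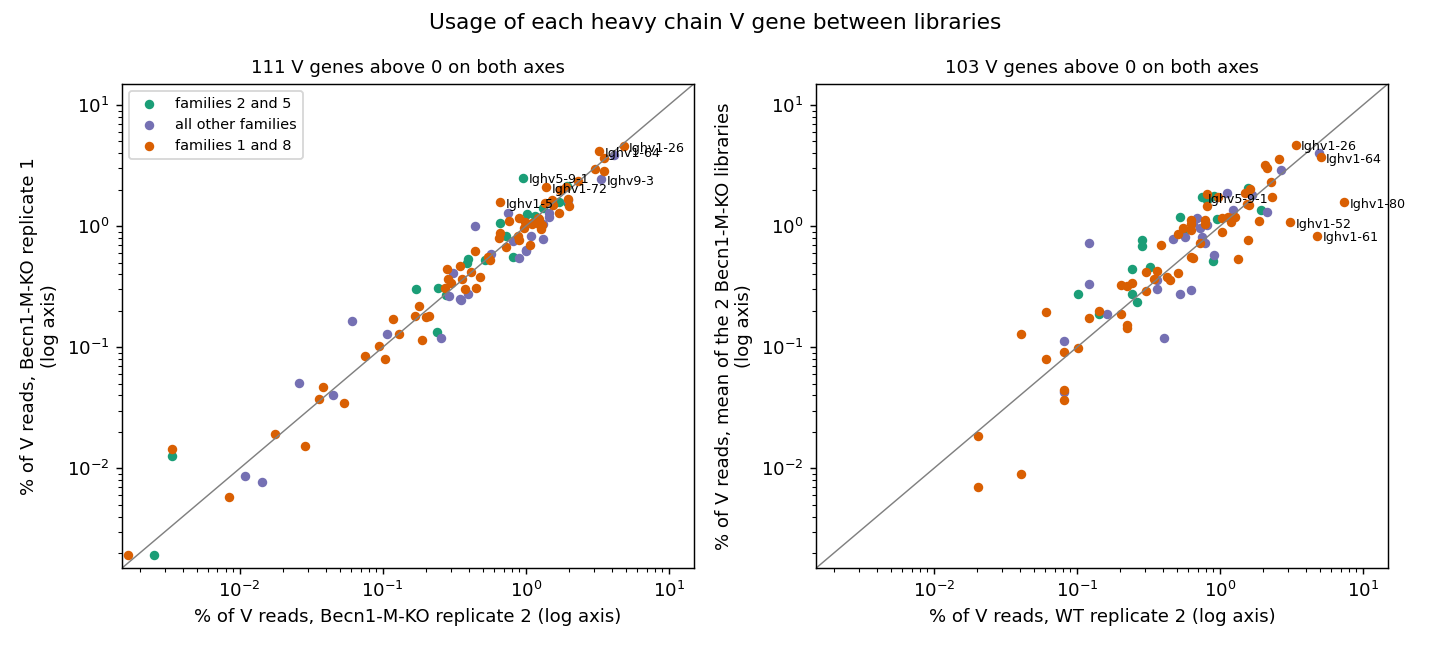
Percent of heavy chain V reads per V gene on log axes, KO replicate 1 against KO replicate 2 on the left and the mean of the 2 KO libraries (vertical) against WT replicate 2 (horizontal) on the right, 1 point per gene with at least 1 read on both axes and the diagonal as a line. On the left the points follow the diagonal with Ighv5-9-1 off it (2.50% and 0.953%), and on the right Ighv1-80, Ighv1-61 and Ighv1-52 lie to the WT side (7.37%, 4.77% and 3.11% in WT replicate 2).

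Ighv1-61 and Ighv1-52 are near copies, 98.6% identical over 351 bases, and both were used more in WT replicate 2. Their last 150 transcript bases are printed to show how little separates them, with the 1 differing base in capitals, so that reads of this stretch are hard to assign to either.
Ighv1-61: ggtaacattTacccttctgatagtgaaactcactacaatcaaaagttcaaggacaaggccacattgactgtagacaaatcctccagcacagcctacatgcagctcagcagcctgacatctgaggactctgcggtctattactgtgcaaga
Ighv1-52: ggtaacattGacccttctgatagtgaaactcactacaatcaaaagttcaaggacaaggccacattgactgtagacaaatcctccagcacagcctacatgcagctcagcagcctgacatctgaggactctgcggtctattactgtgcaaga

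In WT replicate 1, the leading genes after Ighv1-26 were Ighv6-3 and Ighv1-58, each with 17 of 247 reads (6.88%, interval 4.34 to 10.7). In the other libraries Ighv6-3 held 1.99% and 1.75% in KO, against 1.12% in WT replicate 2. Ighv1-58 (chr12:115312166-115312599) held 0.870% and 0.662% in KO, against 1.58% in WT replicate 2, and its log2 fold change of 3.68 (SE 0.44, adjusted p = 0.0475 by edgeR) was among the smallest of the 27 called genes.

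The 3 rows typed IG_V_gene all belong to middle families and together held 1.32% and 1.72% of V reads in KO, against 2.02% (5 reads) and 0.812% in WT. Ighv14-3 had 1073 and 1575 reads in KO, against 4 and 34 in WT, a log2 fold change of 5.64 (SE 0.61, adjusted p = 0.0456 by edgeR). Ighv13-2 had 285 and 471 reads in KO, against 1 and 6 in WT, a log2 fold change of 6.11 (SE 0.47, adjusted p = 0.0435 by edgeR). Both Ighv14-3 and Ighv13-2 passed the count filter through their KO reads, so their calls are a description only. The pseudogene Ighv13-1 had 9 and 13 reads in KO, against 0 and 0 in WT, and did not pass the count filter. The floor of 3 reads stands at 0.186 and 0.168 CPM in the WT libraries, below the 0.577 and 0.648 CPM of Ighv13-1 in KO.

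The 6 pseudogenes, which cannot encode a full heavy chain, together held 0.439% and 0.430% of V reads in KO, against 0.405% (1 read) and 0.264% in WT. Those with the most reads were Ighv1-2, with 226 and 216 reads in KO, against 0 and 7 in WT, and Ighv1-30, with 132 and 156 in KO, against 0 and 2 in WT. Ighv1-14 followed, with 83 and 124 reads in KO, against 1 and 4 in WT. Ighv1-30 and Ighv1-14 were among the 27 called genes, with log2 fold changes of 6.45 and 4.69. Both passed the count filter through their KO reads. The 2 plus-strand rows had 22 and 21 reads in KO, against 0 and 1 in WT.

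The J segments, the other end of the joined exon, were used unevenly as well. Ighj4 took 36.9% and 35.9% of J reads in KO, against 54.1% (20 of 37 reads) and 31.0% in WT. Ighj1 took 31.3% and 31.7% in KO, against 10.8% and 25.8% in WT, and Ighj3 took 15.4% and 15.5% in KO, against 10.8% and 26.4% in WT. The KO libraries were within 1 percentage point of each other for 4 of 4 J segments.

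Genes that make or regulate rearranged heavy chains were taken from lists. Of the 9 V(D)J recombination genes tested, 0 were called in either direction by edgeR with 4 libraries, 0 by DESeq2, 0 at an unadjusted p under 0.05 and 0 against WT replicate 2 alone. Rag1, a subunit of the recombinase, had 7 and 4 reads in KO, against 0 and 1 in WT. Rag2, its partner, had 5 and 12 reads in KO, against 6 and 19 in WT (log2 fold change -1.18, SE 0.49, adjusted p = 0.225 by edgeR). Of the 9 genes of somatic hypermutation and class switching, 0 were called with 4 libraries by edgeR or DESeq2, and 1 higher and 1 lower had an unadjusted p under 0.05. Against WT replicate 2 alone, 3 rose and 1 (Ung, a uracil glycosylase) fell. In that fit, here and for the lists below, 20.9% of all genes were called higher and 22.8% lower.

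Of 7 activators of V promoters and the heavy chain enhancer that were tested, 0 were called with 4 libraries by edgeR or DESeq2 and 0 had an unadjusted p under 0.05, while 3 rose and 2 fell against WT replicate 2 alone, where 20.9% and 22.8% of all genes did. Pou2af1, a B cell coactivator of octamer sites in V promoters, had 240 and 243 TMM CPM in KO, against 1.21 and 87.9 in WT (log2 fold change 2.43, SE 1.79, adjusted p = 0.429 by edgeR, and 1.46 against WT replicate 2 alone). Its DNA-binding partner Pou2f2 had 51.9 and 48.0 TMM CPM in KO, against 6.64 and 55.4 in WT. Of the 2 tested genes of the surrogate light chain list, which belongs to precursor B cells, 0 were called with 4 libraries by either tool, 0 had an unadjusted p under 0.05, and 1 (Vpreb3) fell against WT replicate 2 alone. The median log2 fold changes were -0.02 for the recombination list, 0.21 for the hypermutation list, 0.68 for the activator list and -0.12 for the surrogate light chain list, against 0.01 over all genes tested. Against WT replicate 2 alone they were -0.25 for the recombination list, 0.14 for the hypermutation list, -0.06 for the activator list, which turned its sign, and -0.70 for the surrogate light chain list.

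Constant region genes stood higher in KO by value, but none passed edgeR's test with 4 libraries. The plasma cell markers were mixed in sign in that fit. Of 6 constant region genes tested, 0 were called with 4 libraries by edgeR, 2 had an unadjusted p under 0.05, DESeq2 called 5 higher (4.13% of all genes in its fit), and 6 rose against WT replicate 2 alone (20.9% of all genes). Ighg2c had 11830 and 11190 TMM CPM in KO, against 29.1 and 178 in WT (log2 fold change 6.79, SE 1.52, adjusted p = 0.0933 by edgeR), and Ighm had 8677 and 7906 in KO, against 31.4 and 1210 in WT (3.74, SE 1.90, adjusted p = 0.290 by edgeR). The log2 fold changes were 6.02 for Ighg2c and 2.78 for Ighm against WT replicate 2 alone. The row at the Igha gene ID, which is not among these 6, had 416 and 489 CPM of the library total in KO, against 42.1 and 212 in WT. Of 7 plasma cell markers tested, Sdc1, the surface proteoglycan CD138, rose to 61.2 and 58.2 TMM CPM in KO, against 20.3 and 18.9 in WT (log2 fold change 1.61, SE 0.19, adjusted p = 0.0478 by edgeR). The other 6 did not pass edgeR's test with 4 libraries, which called 1.04% of all genes tested higher. Of the 7, 3 had an unadjusted p under 0.05 in edgeR, all higher (10.5% of all genes tested). DESeq2 called 3 higher (4.13% of all genes in its fit). Prdm1 had 30.4 and 28.9 TMM CPM in KO, against 2.54 and 5.44 in WT (log2 fold change 2.86, SE 0.44, adjusted p = 0.0604 by edgeR, and 2.45 against WT replicate 2 alone). The median log2 fold change of the 7 was 1.96, and 1.66 against WT replicate 2 alone. Igj, the joining chain of secreted IgM and IgA, had 1267 and 1351 TMM CPM in KO, against 13.5 and 133 in WT (4.16, SE 1.27, adjusted p = 0.145 by edgeR, and 3.30 against WT replicate 2 alone). Negative values with 4 libraries were found for 2 of the 7: Xbp1 had 379 and 352 TMM CPM in KO, against 624 and 451 in WT (-0.56). Against WT replicate 2 alone Xbp1 stood at -0.30, and all other plasma cell markers tested had positive values. Derl3 had 35.9 and 34.3 TMM CPM in KO, against 227 and 19.0 in WT (log2 fold change -1.81, SE 1.19, adjusted p = 0.382 by edgeR), and it was 0.89 against WT replicate 2 alone.

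Of the 8 pan-B markers, 0 were called with 4 libraries by edgeR or DESeq2 and 0 had an unadjusted p under 0.05, and against WT replicate 2 alone 4 rose and 1 (Pax5) fell. Of the 8 T cell markers, 0 were called with 4 libraries by either tool, 0 had an unadjusted p under 0.05, and 5 fell against WT replicate 2 alone, where 22.8% of all genes did. Of the 10 gland epithelium markers, edgeR called 4 lower with 4 libraries, where it called 2.18% of all genes tested lower. At an unadjusted p under 0.05, 9 were lower, as were 3391 of all 20695 genes tested. DESeq2 called 10 lower, and 2379 of the 30898 genes in its fit. The median log2 fold change of the 10 was -8.73, and -8.07 against WT replicate 2 alone. Cdh1, the epithelial cadherin, had 1.21 and 1.54 TMM CPM in KO, against 214 and 104 in WT (log2 fold change -6.84, SE 0.56, adjusted p = 0.0435 by edgeR). Adam6b, a gene inside the heavy chain locus between the V and D segments, had 17 and 21 reads in KO, against 0 and 15 in WT, and was not called (log2 fold change 0.89, SE 1.0, adjusted p = 0.591 by edgeR).

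The authors' deposited table of comparisons, which lists unadjusted p-values for 5511 genes, contains 69 of the 113 V genes. Its header does not name the direction of the fold change, which is taken here as KO over WT. In the authors' deposited table all 69 have a positive log2 fold change, between 0.60 and 7.99, as do 2482 of all 5511 genes. The authors' deposited shorter list of genes higher in KO has 1 V gene among its 86 rows, Ighv1-37 with a log2 fold change of 5.79, and their list of 71 lower genes has none.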

How the data were processed

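Ribosomal RNA was removed and Ion Torrent libraries were sequenced, per the labels' protocols and design text. The authors deposited raw read counts per gene as whole numbers, per the file headers. The submitters' processing notes name mm10 as the build and list DESeq2 1.62 with no task attached. The aligner, the counter and any use of strand were not given in the sources used here. Tables of comparisons that the authors deposited give log2 fold changes and, in 1 table, unadjusted p-values. The other 8 columns of per-sample values were not used.

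Counts were tested on the whole table with edgeR 4.0.16 in R 4.3.3 (TMM, filterByExpr at its minimum count of 10 and minimum total of 15, quasi-likelihood test, Benjamini-Hochberg threshold 0.05). Standard errors (SE) were obtained by dividing the log2 fold change by the square root of F. Usage was computed from counts within each library, with Wilson 95% intervals, which cover counting error only, as do floors of 3 reads. Names and sequences came from GENCODE M21, and identities from Biopython 1.88. The alternatives were DESeq2 1.42.0, limma-voom (limma 3.58.1), a replicate block, other scalings and filters, and each library left out. The fit was tested on simulated data. Nothing in the labels states that the replicates are different mice, so the p-values reflect only the spread among these libraries, possibly a technical one.

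The V genes and gene lists were chosen with earlier results of these data known. Named V genes are the 10 most used in KO, the 5 and 3 most used in WT replicates 2 and 1, the 5 that differ most between the KO libraries, the 10 called genes with the smallest p, both ends of the locus, the 3 pseudogenes with the most reads and the 3 rows typed IG_V_gene. From the other lists up to 3 genes each were named by p. Genes outside this rule (Rag1, Pou2f2, Pax5, Ighm, Xbp1 and Derl3, and the V and J genes marked in the text) were chosen after their values were seen. Jchain (listed as Igj), Mzb1, Spi1, Ighd and Igha had no row under that symbol, and the row at the Igha gene ID was counted among the constant regions. Some genes of these lists are not reported here by name.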

Additional observations from a re-analysis of the deposited data

Results flagged for a closer look

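Besides the 113 rows, 4 rows at heavy chain V gene positions carry the type protein_coding in the deposited table and so stand outside the comparisons above. They lie where GENCODE M21 places Ighv6-4, Ighv6-5, Ighv1-73 and Ighv1-83. Together they had 114 reads in KO replicate 1 and 203 reads in KO replicate 2, against 0 and 10 reads in the 2 WT libraries. They were picked out because rows outside the main measurement held signal above the control samples. Ighv1-83 had the most, with 65 and 106 reads in KO, against 0 and 5 in WT.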

How the results depend on the processing

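The number of V genes called higher in KO was 27 with edgeR's main settings and depended on the setting, while 0 were called lower in each setting run. It was 27 with DESeq2 size factors or a stricter filter, 36 with limma-voom, 72 without a count filter and 102 with DESeq2, where 8 V genes had no adjusted p. It was 0 with library totals alone, which moved the median log2 fold change of all genes from 0.01 to 0.60, and 2 when tested against a log2 fold change of 1. With a replicate block it was 0, and 102 at an unadjusted p under 0.05. The labels do not say whether the replicate numbers pair the samples. Differences between replicates 1 and 2 had a correlation of -0.108 between the groups over all genes tested. That value cannot decide the question, since the 2 WT libraries also differ widely in their marker reads. With the pairing crossed, an alternative chosen after seeing the data, 53 were called. Leaving out 1 library at a time gave counts between 0 (without either KO library, 101 at an unadjusted p under 0.05) and 106. The cause of these shifts was not tested.

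The summed V level kept its direction throughout, with a log2 ratio between 4.38 and 7.36 when 1 library was left out. The difference in effective number was 19.2, between 8.68 and 29.6 with 1 library left out, and 4.96 for expected genes at equal depth. The difference in the leading share was between -6.64 and -2.67 with 1 library left out, and -2.26 without each library's leading gene. The distal share differed by -3.01 without each library's leading gene, -3.61 per kb, and -3.99 without Ighv1-80, chosen after seeing the data. Among the 31 named V genes, 114 values under an alternative were called in both fits and 154 in neither, 67 gained the call, 68 lost it and 0 changed sign. The limits are the 247 V reads of WT replicate 1, the 2 samples per group and the gland reads of both WT libraries.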
